A study of Mus musculus with 9 samples.

Results

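Mice carrying a Sox2-GFP reporter were taken at postnatal day 0, and from their epidermis 2 libraries of GFP-negative basal keratinocytes were deposited for each of 3 sample numbers, and the second library of each number was compared here with the first. The comparison used 6 of the 9 libraries of the series, 3 first and 3 second basal libraries paired by sample number, and the 3 Merkel cell libraries served as reference levels. Of 49672 rows in the gene table, 13477 (27.1%) reached 1 TPM in at least 3 of the 6 basal libraries and were tested. TPM is a transcript level corrected for gene length, with a total that all libraries share. All 9 libraries carried the same strain and age labels, and all were total RNA from cells sorted by flow cytometry. Basal keratinocytes were gated as negative for GFP and positive for SCA1 and CD49F, and Merkel cells as positive for GFP. The labels give both basal libraries of a number the same cell type, gate and treatment, and do not say how the first and the second differ. Nor do they say what a sample number stands for (1 animal, littermates or pooled skin). The p-values therefore measure only how far the second-minus-first difference varies between sample numbers, a spread that may be technical.

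Basal keratinocytes form the innermost layer of the epidermis, hold on to the basement membrane through integrins and divide to replace the layers above them. At birth the same sheet is continuous with developing hair follicles, whose buds are built by exchanged Wnt, ectodysplasin and Hedgehog signals, and it also houses Langerhans cells, which are resident immune cells, and melanocytes, which make pigment. A sort of basal cells can therefore hold interfollicular cells, follicle cells and, where the gate lets them through, cells of other lineages.

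Both basal groups carried the markers of the labelled cell type. Krt5, a keratin of the basal layer, was at 6475, 6580 and 6769 TPM in first libraries 1, 2 and 3 and at 5447, 6193 and 5314 TPM in the second, a log2 difference of -0.23 ± 0.09 (second minus first, SE) that did not pass the test (limma adjusted p = 0.137). Itga6, the CD49F integrin chain used in the sort, was at 322, 215 and 326 TPM in the first and 273, 219 and 268 TPM in the second libraries (-0.16, adjusted p = 0.202). Ly6a, which encodes SCA1, the other surface protein of the sort, was at 26.3, 45.4 and 44.7 TPM in the first and 17.1, 22.3 and 24.02 TPM in the second. The Ly6a groups did not overlap, and the gene was lower in the second libraries by a log2 difference of -0.82 ± 0.09 (adjusted p = 0.00851). Reads of the close Ly6 relatives may be divided between them, so the level of each is uncertain to that extent.

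The reporter differed too. EGFP, the added reporter sequence, was at 3.72, 1.73 and 2.96 TPM in the first and at 17.1, 13.4 and 18.3 TPM in the second libraries, with 178 to 247 TPM in the Merkel libraries. The basal groups did not overlap, and the log2 difference was 2.21 ± 0.12 (adjusted p = 0.00481). Of the 18 listed simple epithelial keratins and Merkel cell genes 5 were tested, 2 rose and 1 fell, with a median of 0.35. Over all genes 9.9% rose and 7.43% fell. Krt19, a simple epithelial keratin, was at 0.80, 0.44 and 0.96 TPM in the first and 2.19, 2.54 and 2.53 TPM in the second libraries, without overlap (0.99, adjusted p = 0.0156). Krt7, a related keratin, rose by 0.44. The Krt7 call was lost without number 1, and both were lost without number 3. Both were also lost with all 9 libraries in the model, and 1 of them without the replicate block. Sox2 itself was at 0 to 0.16 TPM in all 6 basal libraries, and Atoh1 and Pou4f3, transcription factors of the Merkel lineage, stayed at or below 0.43 TPM in each, against 99.5 TPM or more in every Merkel library. Ccer2, the most abundant Merkel transcript on the list, fell from 36.4, 27.2 and 53.2 TPM in the first to 9.86, 7.98 and 6.49 TPM in the second libraries (-2.10 ± 0.25, adjusted p = 0.00913). Piezo2, a mechanically gated channel, was at 0.51, 0.42 and 0.65 TPM against 2.33, 0.93 and 1.79 TPM and was below the level needed for a test. The part of cells with reporter RNA in the other differences was not tested.

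Second and first libraries differed in 2335 of the 13477 genes at an adjusted p under 0.05, the threshold for the words rose and fell below. Of these, 1334 were higher in the second libraries, 9.9% of all genes tested, and 1001 were lower, 7.43%. The larger differences ran the other way: 106 genes (0.787%) rose 2-fold or more, a log2 difference of at least 1, and 534 (3.96%) fell by as much. The 106 became 196 at a pseudocount of 0.1, 169 without mitochondrial and small RNA genes and 68 at a filter of 5 TPM, and the 534 became 274 at that filter and 267 without one. At 4-fold the counts were 7 against 227. Without a test, all 3 second libraries lay above all 3 first in 2337 genes (17.3%) and below them in 1356 (10.1%). The median log2 difference over all genes was 0.06. The balance of higher and lower calls depended on the scaling: 57.1% of the genes that passed were higher as deposited, and 41.9% after median-ratio scaling, with 1037 higher and 1436 lower. Leaving out 1 sample number changed the counts to 370 higher and 530 lower without number 1, to 1546 and 1670 without number 2, and to 247 and 420 without number 3.

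**Figure D1:**
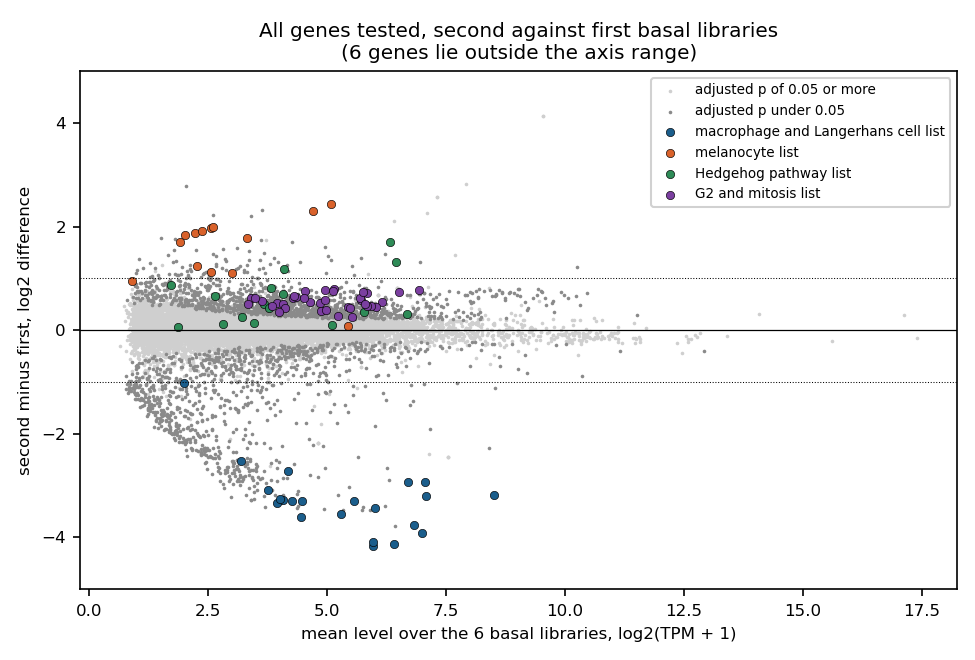
Each point is 1 of the genes tested, with its mean level over the 6 basal libraries as log2(TPM + 1) on the x axis and its log2 difference, second minus first, on the y axis; dotted lines mark 2-fold, dark grey points passed the test, and 6 genes lie outside the axis range. The macrophage and Langerhans cell genes lie below 0, the melanocyte, Hedgehog and mitosis genes above it.

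Of the genes that changed 2-fold or more, 36 of the 106 higher and 57 of the 534 lower were on any of the gene lists used below. The Merkel mean lay above the first basal mean in 103 of the 106 and below it in 3. Among the 534 it lay below in 516 and above in 18. Both comparisons use the same first libraries, so they are not independent. Among genes at 10 TPM or more in the higher group, the 12 that fell most were C1qb, C1qa, C1qc, Tyrobp, Rgs1, Ctss, Cx3cr1, Fcer1g, Fxyd5, Cxcl2, Coro1a and Tmem119, with log2 differences of -4.16 to -3.46. Those that rose most included Dct, Ptgds, Pmel, Gpnmb, Foxi3, Cd200, Fn1, Ccn2, Edar, Etv4 and Col4a1, with differences of 2.44 to 1.47. All 23 had the same direction in each of the 3 sample numbers, which the rule that named them required. Cx3cr1, Coro1a and Col4a1 overlap other tested genes, so reads may be shared and their values are uncertain to that degree. The same holds for Ccer2, Lama3, Gli1 and Ctnnb1 among the genes named elsewhere. Number 2 had the smallest difference in 22 of the 23.

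**Figure D2:**
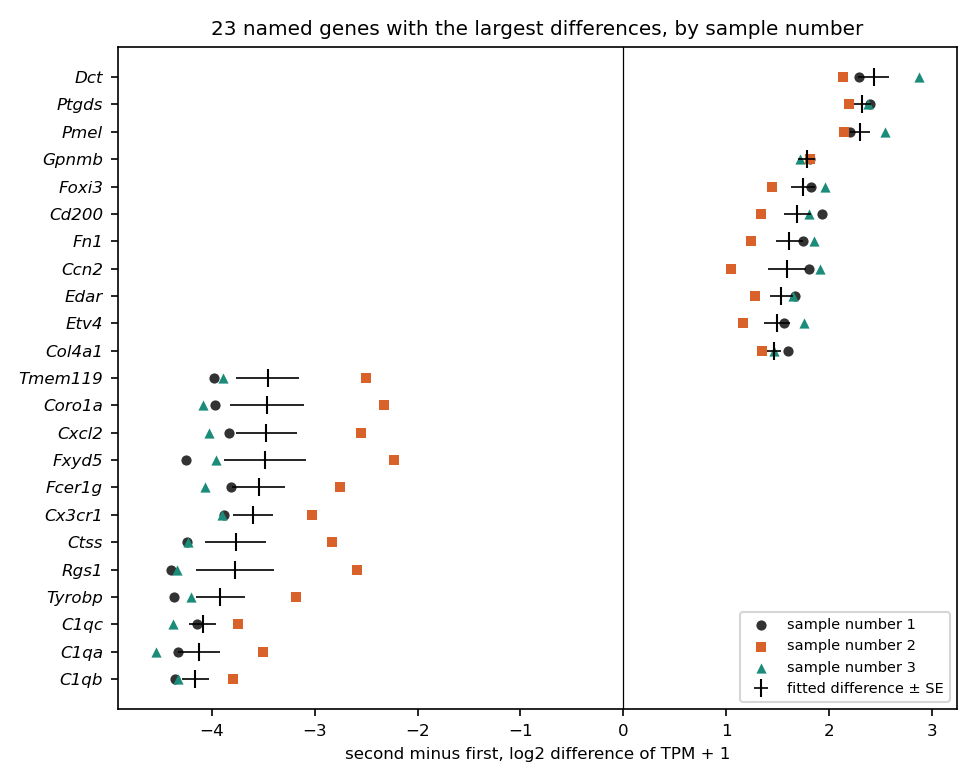
Log2 difference, second minus first, for the 23 genes named above, with 1 symbol for each sample number and the fitted difference ± SE in black. Values of sample number 2 lie nearest to 0 in 22 of the 23 genes.

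Immune transcripts made up the strongest difference. All 22 macrophage and Langerhans cell genes on the list were tested and all 22 fell 2-fold or more in the second libraries, against 3.96% of all genes, with a median log2 difference of -3.30 against 0.06. Their summed level was 2679, 2602 and 2657 TPM in the first libraries and 154, 574 and 157 TPM in the second, a ratio of means of 8.97. In the Merkel libraries it was 191, 348 and 372 TPM. The sums of the 3 first libraries lay close together, while that of second library 2 was more than 3 times that of the other second libraries, at 574 TPM. Abundant genes weigh most in a sum: H2-Aa alone was at 7.39, 93.7 and 13.7 TPM in the second libraries. Single genes differed in their order over the sample numbers, as described below, so close sums do not mean even levels. In a bulk library, fewer cells of a type and less RNA per cell cannot be told apart.

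C1qb, a chain of the complement protein C1q that tissue macrophages make, was at 188, 42.9 and 121 TPM in the first libraries and at 8.21, 2.17 and 5.04 TPM in the second. No second library came near the first library of its number, and the log2 difference was -4.16 ± 0.13 (adjusted p = 0.00218), a ratio of means of 22.8. Its neighbours C1qa and C1qc, on the same stretch of chromosome 4, fell by log2 differences of -4.13 and -4.09. Tyrobp, the adaptor through which many myeloid receptors signal, was at 343, 134 and 239 TPM in the first and 15.7, 13.8 and 12.1 TPM in the second libraries (-3.92 ± 0.24, adjusted p = 0.00512). Csf1r, the growth factor receptor that macrophages depend on, fell by 3.43 on the log2 scale and Ptprc, the CD45 antigen of all white blood cells, by 3.31.

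The immune genes did not all follow the same order over sample numbers. C1qb, Lyz2, a lysozyme of macrophages, and Mrc1, a mannose receptor, were lowest in number 2 in both basal groups. Lyz2 was at 68.6, 6.98 and 27.7 TPM in the first libraries and at 3.95, 0.58 and 1.12 TPM in the second. Cd74, H2-Aa and Cd207, chosen after their values were seen, had number 2 highest in both groups. Cd74, the invariant chain of MHC class II, was at 310, 885 and 683 TPM in the first and at 23.1, 217 and 46.4 TPM in the second libraries, below the first library in each number. H2-Aa, a class II chain, was at 118, 377 and 200 TPM against 7.39, 93.7 and 13.7 TPM. Cd207, the langerin of Langerhans cells, was at 0.74, 9.26 and 2.92 TPM against 0.13, 4.59 and 0.33 TPM. It passed the test at a log2 difference of -1.02 ± 0.21 (adjusted p = 0.032) although its groups overlapped, and the call was lost without number 3. The whole list had a median log2 difference of -3.82 in number 1, -2.31 in number 2 and -3.80 in number 3.

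**Figure D3:**
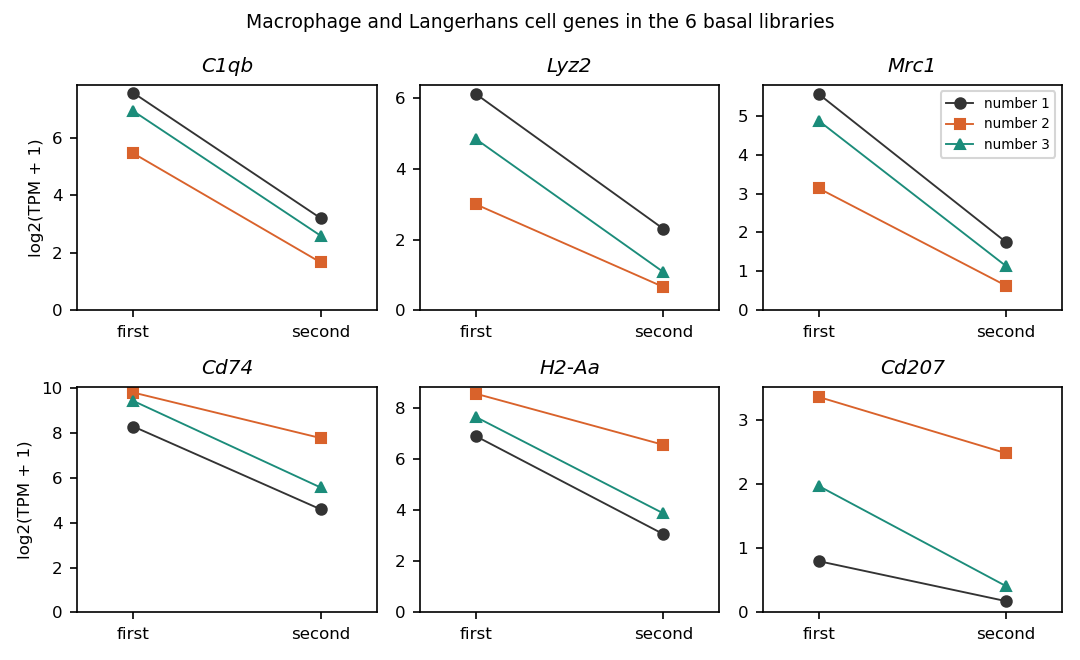
Levels of 6 macrophage and Langerhans cell genes as log2(TPM + 1) in the first and second basal libraries, with a line for each sample number. All lines fall from first to second; number 2 is lowest for C1qb, Lyz2 and Mrc1 and highest for Cd74, H2-Aa and Cd207.

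Interferon-induced and MHC class I genes fell with the immune markers. Of 33 genes listed 29 were tested, and 19 fell, against 7.43% of all genes, while 0 rose. Among the 19, 15 fell 2-fold or more, and the list median was -1.01. B2m, the light chain of all class I molecules, was at 228, 198 and 251 TPM in the first and 53.2, 67.2 and 56.9 TPM in the second libraries (-1.91 ± 0.13, adjusted p = 0.00517). Psmb8, a subunit of the immunoproteasome, was at 15.8, 18.0 and 14.3 TPM against 2.60, 3.47 and 2.23 TPM (-2.19). The class I heavy chains H2-K1 and H2-D1, whose reads may be divided between close relatives, fell by log2 differences of -1.21 and -1.07. Irf1, a transcription factor that interferon induces, did not pass (0.59, adjusted p = 0.162), and all 3 of its second libraries, at 78.1, 90.3 and 79.9 TPM, were above the first, at 60.3, 35.4 and 76.3 TPM. Without number 1 the count that fell was 13, and without number 3 it was 11. The summed macrophage and Langerhans level given above moved the same way in every sample number, and its part in the fall of these genes was not tested.

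Ly6e, a relative of Ly6a that interferon induces, was at 88.4, 101 and 110 TPM in the first and at 23.2, 30.9 and 27.1 TPM in the second libraries (-1.85 ± 0.08, adjusted p = 0.00327). Of 15 tested genes of the Ly6 and uPAR family 5 fell, against 7.43% of all genes, and 0 rose. Without number 1 the count that fell was 4, and without number 3 it was 3. The largest change in the family was in Plaur, the urokinase receptor, from 18.6, 5.65 and 20.7 TPM to 1.2, 0.41 and 1.73 TPM (-2.79). Ly6d, the most abundant member and a keratinocyte gene, did not pass, at 971, 1228 and 947 TPM against 791, 1298 and 924 TPM.

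Melanocyte genes were higher in the second libraries. Of 16 listed, 14 were tested and 13 rose, 12 of them 2-fold or more, against 0.787% of all genes; the median log2 difference was 1.81. Their summed level was 77.8, 94.5 and 63.9 TPM in the first, 217, 260 and 192 TPM in the second and 314, 232 and 273 TPM in the Merkel libraries. Rab38, the 1 tested gene that did not pass, was at 39.9, 45.6 and 38.4 TPM against 43.3, 49.9 and 39.2 TPM. The counts were 12 without number 1 and 12 without number 3.

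Pigment enzymes share a control sequence that MITF, the main transcription factor of melanocytes, is known to bind. The letters TCATGTG, on either strand, were looked for in the 250 bases before the RefSeq start of each gene with an entry (build GRCm38.p6). They were found in 5 of the 10 listed melanocyte genes with an entry and in 3.72% of 27025 genes. The stretches of the 3 pigment enzymes are shown because these genes rose together, with each match in capitals, from chr14:118052247-118052496 (minus strand), chr7:87493513-87493762 (minus strand) and chr4:80833963-80834212 (plus strand).
Dct: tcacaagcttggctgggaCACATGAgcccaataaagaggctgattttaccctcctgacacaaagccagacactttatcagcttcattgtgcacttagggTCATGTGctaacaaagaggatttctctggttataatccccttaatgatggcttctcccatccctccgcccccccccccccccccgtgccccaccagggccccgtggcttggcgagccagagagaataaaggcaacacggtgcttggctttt
Tyr: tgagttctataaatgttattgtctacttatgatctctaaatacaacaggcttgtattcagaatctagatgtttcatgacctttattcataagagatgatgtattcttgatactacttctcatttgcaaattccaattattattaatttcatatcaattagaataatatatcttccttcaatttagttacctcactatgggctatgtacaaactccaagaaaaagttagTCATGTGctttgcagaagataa
Tyrp1: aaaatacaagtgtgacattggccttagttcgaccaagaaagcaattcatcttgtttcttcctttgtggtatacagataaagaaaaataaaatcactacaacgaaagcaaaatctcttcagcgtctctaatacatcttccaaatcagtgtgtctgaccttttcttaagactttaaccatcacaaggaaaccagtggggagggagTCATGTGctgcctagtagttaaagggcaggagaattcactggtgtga

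In Tyr the match starts 22 bases and in Tyrp1 47 bases before the gene's start, and Dct holds 2 matches. Dct, which converts dopachrome in melanin synthesis, was at 10.01, 14.7 and 5.54 TPM in the first and at 53.1, 68.3 and 47.0 TPM in the second libraries (2.44 ± 0.15, adjusted p = 0.00512). Tyr, the rate-limiting tyrosinase, was at 0.97, 1.19 and 0.79 TPM against 6.95, 6.87 and 5.09 TPM (1.87), and Tyrp1 at 1.41, 3.02 and 1.29 TPM against 5.34, 6.09 and 5.58 TPM (1.25). Pmel, the protein on whose fibrils melanin is laid down, was at 7.72, 11.1 and 5.23 TPM against 39.3, 52.4 and 35.5 TPM (2.30 ± 0.10, adjusted p = 0.00339). Pmel overlaps Dgka and Cdk2 on the opposite strand, so reads may be shared among these genes and its value is uncertain. Mitf rose by a log2 difference of 1.13 and Kit, the receptor of melanoblasts, by 1.97. Kitl, the keratinocyte ligand of Kit, was at 15.1, 7.71 and 10.9 TPM in the first and 22.1, 12.1 and 17.4 TPM in the second libraries (0.58, adjusted p = 0.00901), a call lost without number 3. The letters GACCACCCA, bound by GLI factors, were in 0 of 16 Hedgehog pathway genes with an entry and 0.255% of all, and the PU.1 letters GAGGAAGT in 1 of 15 macrophage and Langerhans genes and 2.79% of all.

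Follicle lists differed in their counts of higher and lower genes, and no test compared the lists. Of 25 placode and bud genes 21 were tested, with a median of 0.60. Among them 14 rose and 2 fell, against 9.9% and 7.43% of all genes, and 8 of the 14 rose 2-fold or more. The counts that rose were 9 without number 1 and 7 without number 3. Their summed level was 366, 336 and 375 TPM in the first and 588, 472 and 544 TPM in the second libraries, with no overlap.

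Foxi3, a transcription factor of placodes and the hair matrix, was at 5.76, 3.87 and 4 TPM in the first and 23.01, 12.3 and 18.5 TPM in the second libraries (1.75 ± 0.12, adjusted p = 0.00566). Edar, the ectodysplasin receptor that marks placodes, was at 4.81, 3.07 and 4.55 TPM against 17.6, 8.89 and 16.5 TPM (1.54). Sox9 and Lhx2, factors of follicle progenitors, rose by log2 differences of 1.16 and 1.11, and Lgr6, a receptor found on follicle stem cells, by 1.32. Sostdc1, a secreted Bmp and Wnt inhibitor, was at 27.3, 34.5 and 26.8 TPM against 72.8, 52.8 and 63.0 TPM (1.06). The 2 that fell were Wnt10a, a Wnt ligand (-0.36), and Trps1, a transcription repressor (-0.71), both calls lost without number 1 and without number 3. The calls of Lhx2 and Sostdc1 were lost without number 3. In each of these genes except Wnt10a and Trps1 the second libraries were all above the first.

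Keratins of the follicle went both ways. Krt17, a keratin of the outer root sheath and of placodes, was at 658, 739 and 799 TPM in the first and at 1638, 1527 and 1949 TPM in the second libraries (1.22 ± 0.08, adjusted p = 0.00512). In the Merkel libraries it was at 1671, 1783 and 1917 TPM. Krt6a and Krt6b rose by log2 differences of 1.24 and 1.36, and Krt16 by 0.69. These 4 belong to families of close copies between which reads may have been divided. Krt75 did not pass, at 3.09, 3.34 and 2.22 TPM in the first and 2.18, 2.33 and 1.77 TPM in the second libraries (-0.32). The inner root sheath keratins Krt71, Krt25, Krt27, Krt73 and Krt28 all fell. The calls of Krt73 and Krt28 were lost without number 3, and that of Krt28 also without number 1 and with all 9 libraries in the model. Krt71 was at 13.1, 17.6 and 9.86 TPM against 5.83, 6.97 and 3.77 TPM (-1.15 ± 0.08, adjusted p = 0.00571), and Krt25 at 16.4, 16.6 and 10.1 TPM against 8.02, 6.75 and 5.15 TPM (-0.99). Over all keratin genes 31 were tested, 8 rose and 7 fell, against 9.9% and 7.43% of all genes.

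Of the outer root sheath and follicle stem cell list, 21 of 23 genes were tested, with a median of 0.32. Among them 10 rose and 2 fell, against 9.9% and 7.43% of all genes. Without number 1, 7 rose, and without number 3, 5. Those that fell were Id2 (-0.85), a call lost without number 3, and Cd34 (-2.08), a surface protein of bulge stem cells that is also present on blood progenitors and vessels. Of 36 hair matrix and inner root sheath genes 22 were tested, 5 rose and 5 fell, with 3 lower without number 3. Of 10 tested sebaceous gland genes 0 rose and 2 fell, against 9.9% and 7.43% of all genes. The 2 were Soat1 (-1.64) and Fads2 (-1.37), which act on sterols and fatty acids. Without number 1 or without number 3, 1 was lower.

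Targets of Hedgehog signalling rose. Shh, made by follicle epithelium, acts through the receptor Ptch1 and the membrane protein Smo on the GLI factors, and Ptch1 and Gli1 are themselves switched on by the signal. Of 20 pathway genes 16 were tested, 11 rose and 0 fell, against 9.9% and 7.43% of all genes. Without number 1, 5 rose, and without number 3, 5. The summed level was 391, 261 and 363 TPM in the first, 700, 446 and 594 TPM in the second and 333, 218 and 287 TPM in the Merkel libraries.

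The ligand Shh itself was low, at 1.57, 1.28 and 1.01 TPM against 4.44, 2.03 and 3.39 TPM (0.87 ± 0.18, adjusted p = 0.0335), a call lost without number 1 and without number 3. Ptch1 was at 71.3, 24.8 and 55.0 TPM in the first and 167, 71.4 and 130 TPM in the second libraries (1.31 ± 0.07, adjusted p = 0.00481). Gli1 rose by 1.18 and Gli2 by 0.81 on the log2 scale. Number 2 had the lowest level of all 4 of these genes in the second libraries, and each of the 4 was higher in every second library than in any first. Smo rose by 0.36, a call also lost without either of these numbers, and the inhibitor Sufu did not pass, at 6.15, 5.42 and 5.64 TPM against 6.55, 6.14 and 6.33 TPM.

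Of 43 tested Wnt pathway genes 19 rose and 2 fell, against 9.9% and 7.43% of all genes, with a median of 0.31. Without number 1, 7 rose, and without number 3, 5. Ctnnb1, which encodes beta-catenin, was at 337, 334 and 333 TPM in the first and 546, 488 and 511 TPM in the second libraries (0.62 ± 0.06, adjusted p = 0.00653). The receptors Fzd1, Fzd2, Fzd3, Fzd7 and Fzd10 all rose, Fzd3 the most (0.79), while Fzd6 and Fzd8 did not pass. Of the ligands, Wnt7a rose (0.46), Wnt3a and Wnt10a fell (-0.43 and -0.36), and Wnt3, Wnt4, Wnt5a, Wnt6, Wnt7b, Wnt10b, Wnt11 and Wnt16 did not pass. The 3 ligand calls, and those of Fzd1, Fzd7 and Fzd10, were lost without number 1 and without number 3, and that of Fzd2 without number 3. Axin2, a common target of the pathway, was at 33.3, 31.6 and 32.5 TPM against 41.0, 40.8 and 35.2 TPM and did not pass (0.25, adjusted p = 0.0692).

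In the BMP and TGF-beta pathway 34 genes were tested, 13 rose and 4 fell, against 9.9% and 7.43% of all genes. Without number 1, 6 rose, and without number 3, 5 rose and 2 fell. Bmp7, a ligand, was at 32.5, 22.9 and 30.2 TPM in the first and 52.3, 38.5 and 49.5 TPM in the second libraries (0.70 ± 0.05, adjusted p = 0.00591), and Id3, a target of BMP signals, rose by 0.73. The 3 TGF-beta ligands split. Tgfb1 fell, from 26.3, 16.5 and 20.7 TPM to 10.9, 8.67 and 9.63 TPM (-1.03 ± 0.09, adjusted p = 0.00653), Tgfb3 rose by 1.13, and Tgfb2 did not pass (0.51). Tgfbr1, a receptor subunit, was at 83.7, 35.3 and 62.2 TPM against 24.3, 17.1 and 19.98 TPM (-1.44).

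Other signalling lists held fewer calls. In the EGF receptor and FGF pathway 5 of 20 tested genes rose and 1 fell. Etv4, a transcription factor that FGF signals induce, was at 6.39, 4.6 and 5.73 TPM in the first and 20.9, 11.6 and 21.7 TPM in the second libraries (1.5 ± 0.13, adjusted p = 0.00628), and Fgfr1, a receptor, rose by 1.31. The related factor Etv5 did not pass (-0.04). Against 9.9% of all genes higher and 7.43% lower, 3 of 17 tested Notch pathway genes rose and 3 fell, and 3 of 16 tested ectodysplasin and NF-kB genes rose and 0 fell, with the ligand Eda at -0.09 (adjusted p = 0.627). In these lists leaving out number 1 or number 3 left 0 to 3 calls in either direction.

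Cell cycle transcripts were higher throughout the second libraries by a modest amount. Of 37 genes of G2 and mitosis 34 rose and 0 fell, with a median log2 difference of 0.55, and in all 37 the 3 second libraries lay above the 3 first, against 17.3% of all genes. Of 35 S phase genes 23 rose and 0 fell, with a median of 0.44. Over all genes 9.9% rose and 7.43% fell. The summed G2 and mitosis level was 1101, 1097 and 1033 TPM in the first, 1629, 1510 and 1730 TPM in the second and 635, 591 and 786 TPM in the Merkel libraries. None of the genes of either list reached a 2-fold difference. Without number 1, 20 genes of G2 and mitosis and 3 of S phase rose, and without number 3, 9 and 3.

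Top2a, which untangles DNA before division, was at 85.7, 97.6 and 83.7 TPM in the first and 149, 152 and 160 TPM in the second libraries (0.79 ± 0.07, adjusted p = 0.00669). Foxm1, the transcription factor of the mitotic genes, was at 16.15, 15.0 and 17.3 TPM against 30.5, 24.2 and 29.1 TPM (0.75), and Kif11 and Aurkb, a spindle motor and a chromosome kinase, rose by 0.80 and 0.76. In S phase the largest difference was that of Exo1, a DNA repair nuclease (0.81), and Pcna, the sliding clamp of replication, was at 109.5, 115 and 106.5 TPM against 129, 125 and 139 TPM and did not pass (0.25, adjusted p = 0.065). Of 13 tested cell cycle inhibitors and pocket proteins 2 rose, Cdkn1c (0.56) and Cdkn2c (0.60), against 9.9% of all genes, and 0 fell. Both calls were lost without number 1 and without number 3.

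Replication-dependent histone genes, which are expressed in S phase and seen here because total RNA was sequenced, rose with them. Of 68 listed 64 were tested, 53 rose and 0 fell, against 9.9% and 7.43% of all genes, with a median of 0.68. Without number 1, 32 rose, and without number 3, 19. Their sum was 20360, 23572 and 18797 TPM in the first and 32555, 30727 and 34684 TPM in the second libraries, with no overlap. Hist1h4d, an abundant H4 gene, rose by 0.73 and Hist3h2ba by 1.39. Histone genes are near-identical copies, so the division of reads among single genes is uncertain, while their sum is less affected.

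**Figure D4:**
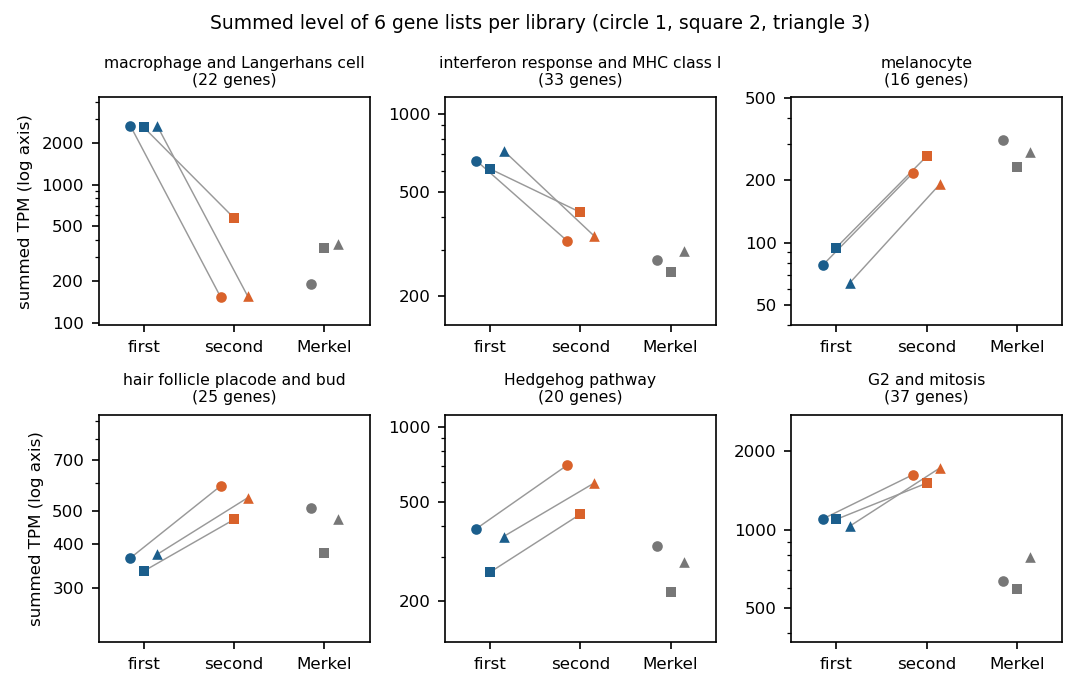
Summed TPM of 6 gene lists in the first and second basal and the Merkel libraries, on log axes, with 1 symbol for each sample number and a line joining the basal libraries of a number. The 3 second libraries lie below the 3 first for the immune and interferon lists and above them for the melanocyte, placode, Hedgehog and mitosis lists.

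Genes of the basal layer itself showed no 2-fold difference. Of 15 adhesion and hemidesmosome genes 4 rose, against 9.9% of all genes, and 0 fell, with a median of 0.10, and the laminin chains Lama3 and Lama5 and the cadherin Cdh3 were among those that rose, by 0.29 to 0.51. Without number 1 the count was 2, and without number 3 it was 2. Col17a1, a hemidesmosome collagen, was at 543, 466 and 567 TPM against 514, 469 and 489 TPM and did not pass (-0.09). The summed level of basal keratins and epidermal regulators was 18258, 18373 and 19077 TPM in the first libraries. It was 14517, 16700 and 14470 TPM in the second, without overlap. The median log2 difference of the list was 0.26, so its sum and its median went opposite ways. Krt14, the most abundant keratin, alone went from a mean of 8781 to 6681 TPM. An unadjusted limma p under 0.05 was found in 12 of the 15 genes, counted in either direction, against 4658 of all 13477 genes tested. Of these 15, 3 rose, among them Trp63, the master regulator of stratified epithelium (0.28), and 1 fell, Krt14 (-0.39, adjusted p = 0.0477); the Krt14 and Trp63 calls were lost without number 1 and without number 3.

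Of 28 tested suprabasal and cornified envelope genes 12 fell and 1 rose, against 7.43% and 9.9% of all genes. None changed by 2-fold, and the median was -0.21. Without number 1, 6 fell, and without number 3, 5. Without the replicate block 0 of the 28 rose and 0 fell, so these calls depend on the pairing. In 1 of the 28 all 3 second libraries lay below all 3 first. Flg, the filaggrin of the granular layer, was at 797, 782 and 376 TPM in the first and 507, 410 and 235 TPM in the second libraries (-0.75 ± 0.07, adjusted p = 0.00756), and Lor, loricrin, fell by 0.72 on the log2 scale. Their groups overlapped, with number 3 lowest in both, while the second library was below the first in every number. Krt1 and Krt10, keratins of the spinous layer below, did not pass: Krt1 was at 3325, 4312 and 2236 TPM against 3034, 4618 and 2521 TPM (0.05). Both keratins were at 1901 TPM or more in all 6 libraries sorted as basal.

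Most of the fibroblast genes tested rose in the second libraries. Only 9 of 18 were tested, 7 rose and 0 fell, against 9.9% and 7.43% of all genes, with a median of 0.54. Of the 7, 2 rose 2-fold or more, and in 3 of the 9 all second libraries lay above all first. Without number 1, 4 rose, and without number 3, 4. Without the replicate block 3 rose. Dcn, a matrix proteoglycan, was at 98.7, 33.1 and 82.2 TPM in the first and 242, 94.2 and 191 TPM in the second libraries (1.33 ± 0.07, adjusted p = 0.00481), and Col1a2, a collagen I chain, at 2.5, 1.75 and 2.49 TPM against 9.20, 6.63 and 8.13 TPM (1.47). Col3a1, a defining collagen of fibroblasts, did not pass and stayed at or below 1.37 TPM in each of the 6 libraries. The summed list was at 180, 115 and 167 TPM against 378, 218 and 323 TPM. Of 9 tested genes of mesenchymal character 2 rose and 3 fell, with a median of -0.56; 6 fell without number 2 and 2 without number 3. Fn1, a matrix glycoprotein, rose by 1.61, while Vim, the intermediate filament of mesenchymal and white blood cells, fell from 801, 350 and 543 TPM to 106, 160 and 78.4 TPM (-2.27 ± 0.36, adjusted p = 0.0171), a call lost without number 3.

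Haemoglobin transcripts fell. Hba-a1 was at 252, 55.9 and 234 TPM in the first and 97.8, 34.2 and 111 TPM in the second libraries (-1.04 ± 0.13, adjusted p = 0.0101). Among 5 tested erythroid genes 4 fell, against 7.43% of all genes, and the globin genes have close copies. Number 2 was the lowest in both groups. T cell, mast cell and vessel markers gave little signal: 2, 0 and 1 genes of 12, 8 and 16 were tested and none passed. Immediate early and stress genes, which respond to tissue handling, gave 1 higher and 1 lower of 28 tested, with a median of 0.06; 0 were higher without number 1 or without number 3, and 4 higher and 6 lower without number 2. Of the 15 tested genes of the mitochondrial genome 0 passed and 1 of 80 ribosomal protein genes fell, a number that became 25 after median-ratio scaling and 14 after quantile normalization. Small and structural RNA took 37.8% to 43.6% of TPM in the first and 41.2% to 44.0% in the second libraries.

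**Figure D5:**
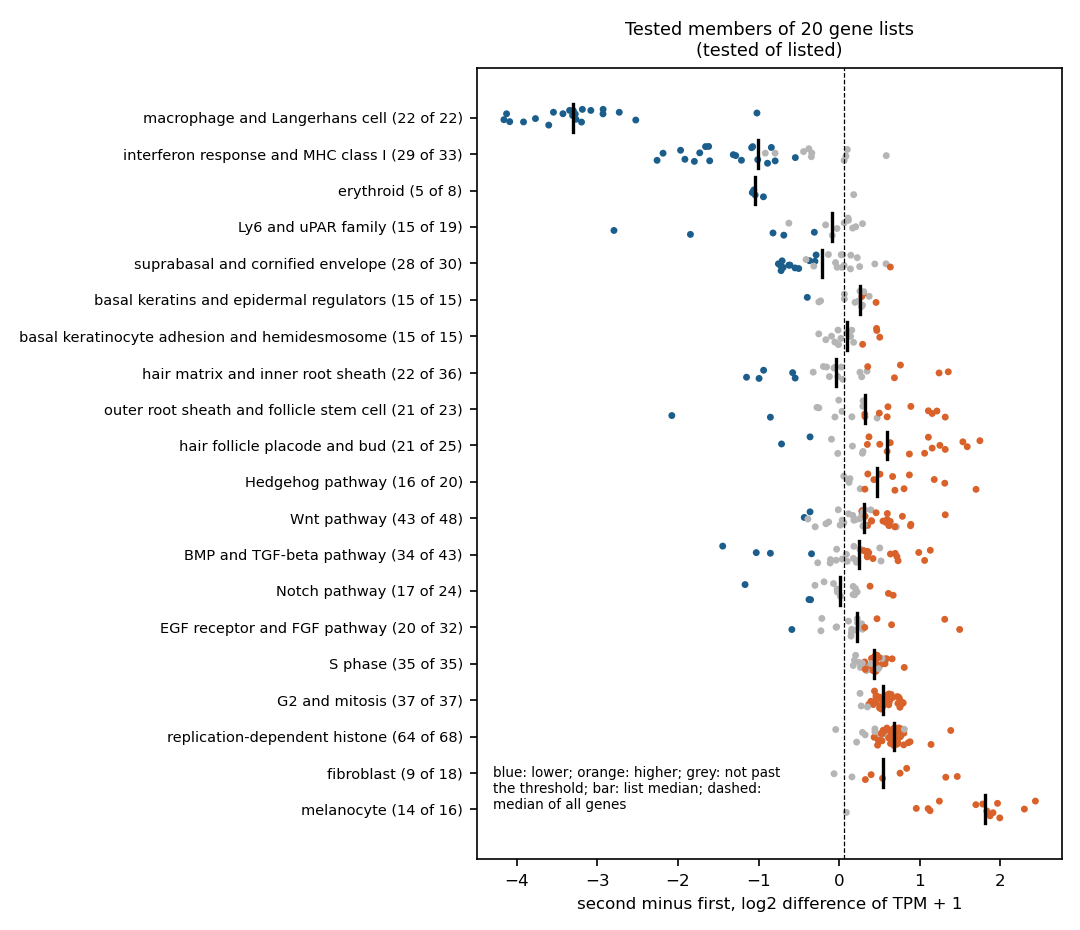
Log2 difference, second minus first, of the tested members of 20 gene lists, with 1 point for each gene, a black bar at the list median and a dashed line at the median of all genes. The macrophage list has the lowest median, -3.30, and the melanocyte list the highest, 1.81.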

How the data were processed

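RNA of 9 sorted libraries was sequenced as paired reads of 125 bases, and per the submitters' processing notes the tools were Trimmomatic, STAR and RSEM on mm10. Annotation and strand setting were not stated there or in the labels. Of 167 genes the rule named, 23 overlap another tested gene, 18 of them on the opposite strand alone, and reads of such genes may be shared. The deposited values are TPM per gene, which hold no depth, so no counting interval could be given. Columns were matched to samples by the description label. Symbols from GENCODE M21 matched 49412 of 49672 rows.

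Genes reaching 1 TPM in 3 or more of the basal libraries were tested on log2(TPM + 1), a scale that understates changes of low genes, with limma 3.58.1 in R 4.3.3 (sample number and library as terms, variance trend, Benjamini-Hochberg adjustment over 13477 genes); ± is the SE of a log2 difference. Pairing was given by the comparison's rule. Deviations of same-numbered libraries from their group means had correlations of 0.505, 0.540 and 0.414, against -0.530 to 0.190 between different numbers. Deviations from a mean of 3 sum to 0, so positive values for the same numbers push the others down. The contrast is therefore no test of the pairing. A sign-flip test over 3 pairs cannot go below an exact p of 0.25. On simulated data for this comparison with 13477 genes, 92%, 100%, 98% and 100% of log2 changes of 0.75, 1, 1.5 and 2 were recovered, with 17 false calls. These data were drawn once, with independent normal noise of the variances that the model itself had fitted. Only a small part of the genes was changed, and none of the lowest. The recovery therefore rests on the model's own assumptions and does not cover low genes or many changed genes.

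The members and lists were chosen with earlier results of these data known. Genes were named by rule: the 12 highest and 12 lowest past 2-fold at 10 TPM or more without overlap, sort genes and markers, and, for every list, its most abundant member and up to 5 passing members ranked by adjusted p. Other genes given as examples, and the keratin family, were chosen after their values were seen. Some genes that the rule named are not reported here. Alternatives were other pseudocounts, filters, scalings, no replicate block, no variance trend, all 9 libraries and each sample number left out.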

Additional observations from a re-analysis of the deposited data

How the results depend on the processing

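All 143 named genes that passed kept their direction under every alternative that tested them, 131 of them at a filter of 5 TPM. The numbers that still passed were 140 with median-ratio scaling, 140 with quantile normalization, 142 without mitochondrial and small RNA genes, 131 without a variance trend, 127 with all 9 libraries and 100 without a filter. Without the replicate block, which leaves the sample number out of the model, 88 passed, and the counts over all genes were 454 higher and 650 lower. Among those lost without the block were Cd74, Ly6a, Dcn, Ptch1, Gli2, Bmp7, Flg and the globins. With no filter on low values 349 genes were higher and 352 lower, 267 of them 2-fold or more, and at 5 TPM 649 were lower, with 68 and 274 at 2-fold. Genes higher by 2-fold numbered 196 at a pseudocount of 0.1 and 169 without mitochondrial and small RNA genes. Leaving out 1 sample number gave 247 to 1546 genes higher and 420 to 1670 lower, the lowest counts without number 3 and the highest without number 2. Of the 143 named genes, 105 still passed without number 1 and 99 without number 3. Among the 34 genes named as examples that passed, 24 still passed without number 1 and 18 without number 3. Without the replicate block 17 of these 34 passed, and with no filter on low values 15.

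Some list medians changed sign. The hair matrix and inner root sheath median was 0.029 with quantile normalization and -0.12 to 0.063 with 1 number left out, the sebaceous median 0.012 with quantile normalization, and the Merkel list median, 0.35 over 5 genes, was -0.031 over 18 genes without a filter. The Notch median was -0.041 with median-ratio scaling, -0.026 with quantile normalization and -0.051 to 0.060 with 1 number left out. The median of keratinocyte-secreted signals was -0.00044 without mitochondrial and small RNA genes and -0.066 to 0.034 with 1 number left out, and that of immediate early genes -0.095 to 0.13. The cause was not tested. The TPM values hold no depth, so the counting error of low genes is unknown.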

Other observations

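The gene families below were chosen after their values were seen. All 5 tested NADPH oxidase genes, which make the oxidative burst of phagocytes, fell in the second libraries with a median log2 difference of -2.85. Cyba, a subunit of that enzyme, was at 73.5, 21.3 and 50.8 TPM in first libraries 1, 2 and 3 and at 6.83, 4.01 and 5.02 TPM in the second, without overlap. All 6 tested of 14 Fc receptor genes, all 7 tested of 19 Ms4a genes and all 7 tested of 10 MHC class II genes fell too, against 7.43% of all genes. Their medians were -2.83, -3.10 and -2.66. Some members, such as Ms4a7 and Fcgr1, reached 1 TPM in the first libraries only, so the filter fixed their direction. Fcrls is counted in both the Fc receptor family and the microglia set that follows. Of 11 tested genes often used to describe microglia, the macrophages of the brain, 11 fell, among them P2ry12, from 45.1, 9.06 and 33.0 TPM to 2.08, 0.81 and 1.71 TPM. Of 24 chemokines and their receptors 11 fell and 1, the receptor Cxcr4, rose, against 7.43% and 9.9% of all genes.

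Of 21 tested collagen genes 11 rose, 2 fell and 8 did not pass, with a median of 0.40. Among 8 laminin genes 6 rose and 0 fell, and over all genes 9.9% rose and 7.43% fell. Of 8 further pigment cell genes 4 rose and 4 did not pass, among the former Mc1r, the melanocortin receptor, from 0.60, 0.89 and 0.57 TPM to 2.99, 4.39 and 3.47 TPM. Mcoln3, an endolysosomal channel, went from 0.66, 2.26 and 0.76 TPM to 8.21, 10.4 and 8.18 TPM. Both were higher in every second library than in any first.

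The 534 genes that fell 2-fold or more held 1.42%, 0.923% and 1.2% of all TPM in the first libraries and 0.218%, 0.303% and 0.2% in the second. The 106 that rose 2-fold or more held 0.139%, 0.132% and 0.145% against 0.393%, 0.319% and 0.397%. Of the 534, the median log2 difference was -2.20 in number 1, -1.29 in number 2 and -2.04 in number 3. Both sets were chosen by their differences in these same libraries, so the direction of these shares and medians was fixed by the choice. Of 16 tested genes of the IGF axis and imprinted growth control 5 rose and 3 fell, against 9.9% and 7.43% of all genes. In this list 0 passed without number 1 or without number 3. Igf2, a fetal growth factor that overlaps an antisense gene, was at 573, 351 and 560 TPM in the first and 325, 271 and 299 TPM in the second libraries. Of 19 tested Hox genes 2 rose and 0 fell, near the 9.9% of all genes that rose.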
